A study of Homo sapiens and Mus musculus with 21 samples.

Results

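Fibroblast growth factor (FGF) receptors and ligands were followed across mesothelioma cells that differ in BAP1 or in inhibition of EZH2. The members were the receptors FGFR1, FGFR2, FGFR3, FGFR4 and FGFRL1 and the ligands FGF1, FGF2, FGF5, FGF9 and FGF18, chosen by gene symbol, which gave 10 of 60674 genes in each human count table. Their title-case orthologs gave 10 of 41214 genes in the mouse table.

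RNA was sequenced from 21 libraries of mesothelioma, a tumour of the lining of the chest. In the knockdown table, 2 human lines, H2810 and MSTO-211H, expressed a short hairpin RNA that targets BAP1 (shBAP1) or a random hairpin, with 2 libraries in each group. In the drug table, H2810 (BAP1 wildtype by its label) and H2731 (BAP1 mutated by its label) received the vehicle DMSO or GSK126, which inhibits the histone methyltransferase EZH2, again with 2 libraries in each group. The mouse table held 3 libraries of BNC cells, labelled Bap1-/-, Nf2-/- and Cdkn2ab-/-, and 2 of NC cells, labelled Nf2-/- and Cdkn2ab-/-. By these labels both mouse groups carry the Nf2 and Cdkn2ab deletions. Each human group is a single line with a single named hairpin or drug, so a response belongs to that line and that agent. Drug dose, treatment times and the Cre behind the mouse deletions are not given in the sources used here. Nothing in the labels says that replicates came from separate cultures or, in the mouse, from separate animals, so p-values measure only the spread between these libraries, which may be technical. In such bulk RNA, fewer cells that express a gene and less RNA per cell cannot be told apart.

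FGFs are secreted proteins that bind heparan sulfate on the cell surface and, together with it, bring FGF receptors into pairs. The paired intracellular kinase domains of FGFR1 to FGFR4 phosphorylate each other and the docking protein FRS2, which passes the signal on to RAS and ERK and to other kinases. FGFRL1 binds FGFs but lacks the kinase domain. Mesothelioma cells are known for making FGF2 together with FGF receptors, and BAP1, a deubiquitinase that removes ubiquitin from histone H2A, and EZH2, which methylates histone H3, both act on Polycomb-controlled genes.

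Library totals ran from 19707304 to 23217215 counts (knockdown), 17927837 to 22927239 (drug) and 13693927 to 22916482 (mouse). Levels are in CPM, the count scaled to the TMM-adjusted library size, and a member was called where edgeR's quasi-likelihood test, fitted over all genes of a table, gave a Benjamini-Hochberg adjusted p under 0.05. BAP1 stood at 115 and 117 CPM in H2810 with the random hairpin and at 13.4 and 20.3 CPM with shBAP1, and in MSTO-211H at 100.1 and 103 CPM against 15.4 and 17.7 CPM, as the labels say. Mouse Bap1 lay between 30.5 and 44.1 CPM in BNC and between 60.2 and 62.0 CPM in NC. Nf2, labelled as deleted in both groups, lay between 82.5 and 181 CPM in BNC and between 117 and 121 CPM in NC. A count over the whole gene cannot check a deletion of some exons. Cdkn2a held at most 6 counts in any mouse library, and Cdkn2b held 0. BNC replicate 6 stood apart, with a chi-square per degree of freedom of 310 and 293 against BNC replicates 4 and 5, which gave 14.1 against each other. The 2 NC libraries differed from each other too, with 129. In the knockdown, the 2 libraries of a group gave 16.5 (random hairpin) and 16.3 (shBAP1) in H2810. In MSTO-211H they gave 2.21 and 2.18, and both lines shared 1 estimate of the spread per gene. Among mesothelial markers, 7 or 8 of 12 were above 1 CPM on average in every human group. Leukocyte markers summed to at most 4.74 CPM and endothelial markers to at most 11.7 CPM in any human library, with CD3E at 0 in all human groups. Fibroblast markers, which cultured mesothelioma cells also express, summed to 7543 to 10775 CPM in H2810 and to 295 to 1249 CPM in the other lines. In H2810 with the random hairpin most of the sum was COL1A1 and COL3A1, with means of 5627 and 4097 CPM. DCN had 10.4 CPM, COL1A2 0.0215 CPM and LUM 0 CPM there. Whether other cells contributed was not tested.

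Which members the control cells expressed was read per kilobase of merged annotated exons, because longer genes collect more reads. FGF2, a ligand that leaves cells without a classical signal peptide, had the highest level per kilobase of the 10 members in H2810 (38.8 ± 0.543 CPM per kilobase with the random hairpin, SD, n = 2) and in MSTO-211H (75.6 ± 2.09, n = 2). FGFRL1 was the highest in H2731 with DMSO (38.7 ± 2.06 CPM per kilobase, n = 2), where FGF2 came next at 12.6 ± 0.518. FGFR1 led the kinase receptors in all 3 lines on this scale, at 6.91 ± 0.0639 CPM per kilobase in H2810 and 2.27 ± 0.109 in MSTO-211H with the random hairpin and 10.2 ± 0.223 in H2731 with DMSO. Its merged exons span 17201 bases over 58 transcripts while its longest transcript has 6216 bases, and with the latter length FGFR1 passed FGFRL1 in H2810 and FGF2 in H2731.

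FGF5 was the next member after FGF2 in MSTO-211H, just ahead of FGFRL1, at 17.6 ± 0.384 CPM per kilobase (n = 2), against 0.163 ± 0.0452 in H2810 of the same table, and with the longest transcript FGFRL1 came before it. FGF18 followed FGF2 in H2731 at 10.98 ± 0.628 CPM per kilobase (n = 2). FGF1, FGF9 and, outside H2731, FGFR2 were near 0. In the knockdown table FGF9 held 1 count over 8 libraries, FGFR2 held 16 counts, of which 6 lay in H2810, and FGF1 held 42 counts, of which 38 lay in MSTO-211H. In the drug table FGF1 held 11 counts over 8 libraries, and FGF9 held 22 counts, all in H2731. A library at 0 allows a level of up to 0.129 to 0.171 CPM, the value of 3 counts in the deepest and the shallowest human library. These limits, like the intervals below, cover counting error only.

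**Figure D1:**
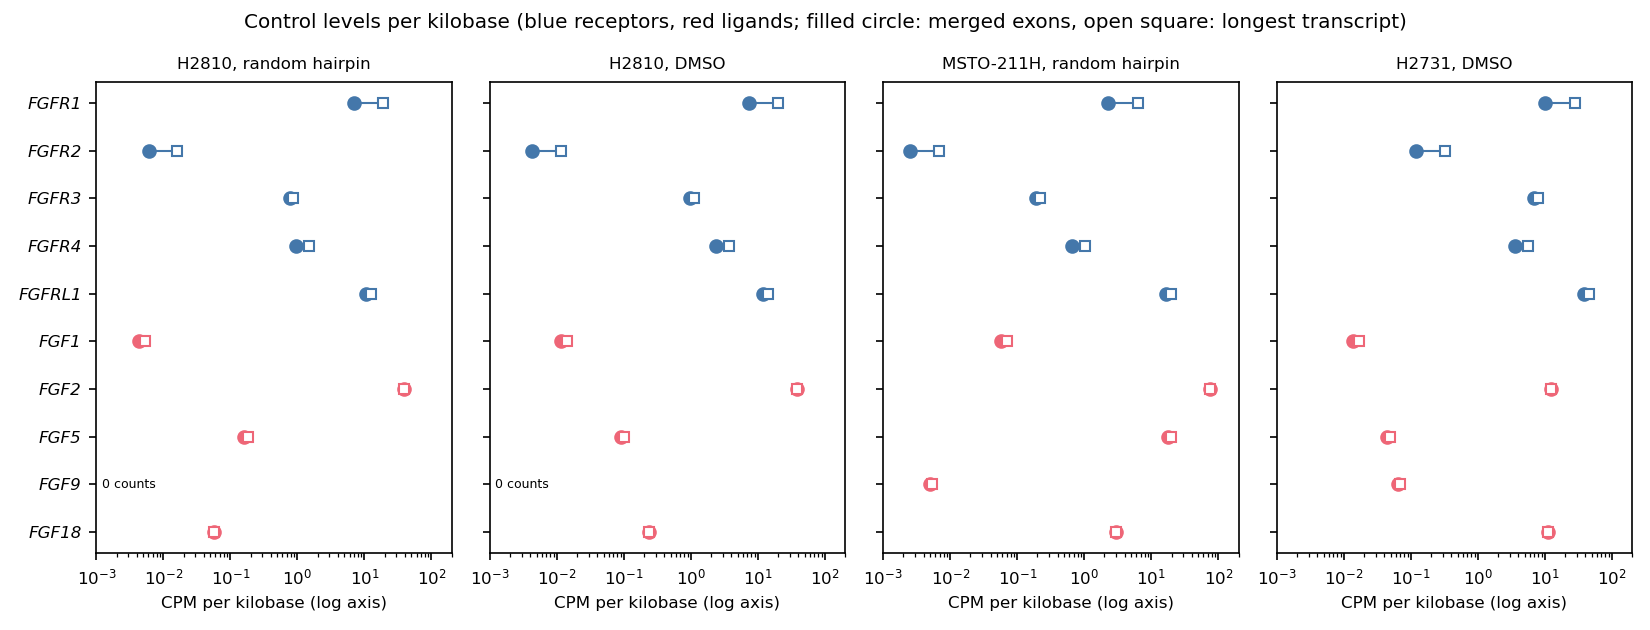
Mean level per kilobase (log axis) of the 10 members in the 4 control groups, 2 libraries each, with receptors in blue and ligands in red. Filled circles divide by merged exon length and open squares by the longest transcript. FGF2 lies furthest right in H2810 and MSTO-211H and FGFRL1 in H2731, and FGFR1 is the expressed member whose position depends most on the length.

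The lines were compared under their control condition. Against H2810 with the same random hairpin, 8 of 8 tested members were called in MSTO-211H, 5 higher and 3 lower, where 79.7% of all tested genes were called. Among receptors, FGFR1 stood at 37.8 and 40.4 CPM in MSTO-211H and at 118 and 119.7 CPM in H2810, a log2 difference of -1.60 ± 0.05 (SE, adjusted p = 1.03e-10). FGFR3 stood at 0.957 and 0.916 CPM against 3.86 and 3.60 CPM (-1.99 ± 0.21, adjusted p = 4.18e-06). For both receptors the MSTO-211H libraries lay below the H2810 libraries. FGFR4 was lower too, at 3.25 and 2.99 CPM against 4.55 and 4.57 CPM (-0.55 ± 0.15, adjusted p = 0.00493), although DESeq2 gave it an adjusted p of 0.0510 where the other alternatives gave 0.00420 to 0.0394. FGFRL1 was the receptor that was higher, at 73.6 and 71.3 CPM against 46.2 and 45.9 CPM (0.65 ± 0.05, adjusted p = 2.13e-07).

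Every tested ligand was higher in MSTO-211H than in H2810. FGF2 stood at 504 and 525 CPM against 266 and 261 CPM (0.96 ± 0.05, adjusted p = 5.98e-09). FGF5, a ligand known from hair growth and from several tumours, stood at 107 and 103 CPM against 1.16 and 0.778 CPM, a fold of 106 (6.73 ± 0.11, adjusted p = 5.12e-13). FGF18 stood at 6.51 and 5.35 CPM (136 and 111 counts) against 0.0858 and 0.146 CPM (2 and 3 counts). Its fitted difference was 5.63 ± 0.31 (adjusted p = 1.08e-08). FGF1 rested on 12 counts against 1, a ratio of 12.6 with an exact 95% interval of 1.87 to 540 for counting error.

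Against H2810 with DMSO, 7 of 8 tested members were called in H2731, 6 higher and 1 lower, where 82.2% of all tested genes were called. All 5 receptors were higher in H2731. FGFR3 showed 34.0 and 33.1 CPM against 4.85 and 4.68 CPM (2.81 ± 0.09, adjusted p = 1.66e-16), and FGFRL1 showed 174 and 162 CPM against 50.1 and 54.1 CPM (1.69 ± 0.05, adjusted p = 1.14e-16). FGFR1 showed 178 and 172 CPM against 124 and 127 CPM (0.48 ± 0.04, adjusted p = 6.02e-10), and FGFR4 showed 17.7 and 16.6 CPM against 11.3 and 11.4 CPM (0.60 ± 0.09, adjusted p = 2.29e-06). FGFR2 held 94 counts over the 2 H2731 libraries and 3 over the 2 of H2810, a ratio of 27.9 (exact 95% interval 9.24 to 137).

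The ligands split between these lines. FGF18 was high in H2731, at 22.8 and 21.1 CPM against 0.514 and 0.439 CPM (5.52 ± 0.16, adjusted p = 4.45e-17). FGF2 was the member that was lower, at 82.9 and 87.9 CPM against 262 and 261 CPM (-1.62 ± 0.04, adjusted p = 4.16e-18). FGF9 had 5 and 8 counts in H2731 and 0 in both H2810 libraries. FGF5 stood at 0.217 and 0.304 CPM against 0.685 and 0.390 CPM and was not called (-1.02 ± 0.51, adjusted p = 0.0731), and without H2810 DMSO replicate 2 it was (-1.40, adjusted p = 0.0419, with 0.0419 as the lowest of its alternatives). BAP1 itself was lower in H2731 by 1.07 ± 0.04 on the log2 scale, and line and BAP1 status cannot be told apart here.

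H2810 occurs in both human tables, which were normalised separately, so levels set across them are given with no test. FGF2 and FGFR1 were close, with means of 264 and 119 CPM for the random hairpin and 262 and 126 CPM for DMSO. FGFR4 had a mean of 4.56 CPM with the random hairpin and 11.3 CPM with DMSO, and FGF18 had 5 counts over 2 libraries against 18.

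What BAP1 knockdown did to the members was asked in both knockdown lines. In H2810, 3 of 8 tested members were called, all higher, where 45.8% of all tested genes were called. The median log2 change was 0.21 over the 8 members and -0.03 over all tested genes. FGF2 rose from 266 and 261 CPM to 314 and 296 CPM (0.21 ± 0.05, adjusted p = 0.00519). FGFRL1 rose from 46.2 and 45.9 CPM to 53.3 and 52.7 CPM (0.20 ± 0.05, adjusted p = 0.00718). Both changes were small. The groups did not overlap in any of the 8 tested members, called or not. Separation of 2 libraries from 2 therefore does not set the called members apart, and how often it occurred over all tested genes was not counted. FGFR4 stood at 4.55 and 4.57 CPM with the random hairpin and at 5.85 and 5.76 CPM with shBAP1 (0.35 ± 0.13, adjusted p = 0.0489), a call that 8 of 11 alternatives lost, with adjusted p from 0.0426 to 0.237, among them the replicate block (0.0690) and the omission of any of the 4 H2810 libraries.

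The remaining H2810 members were not called. FGFR1 had 118 and 119.7 CPM with the random hairpin and 120.4 and 120.3 CPM with shBAP1 (0.02 ± 0.05, adjusted p = 0.802). FGFR3 had 3.86 and 3.60 CPM against 2.51 and 3.20 CPM (-0.39 ± 0.17, adjusted p = 0.0799), and FGF5 had 1.16 and 0.778 CPM against 1.67 and 1.33 CPM (0.62 ± 0.23, adjusted p = 0.0556). These last genes lie near the threshold: FGFR3 was called without shBAP1 replicate 2 (-0.57, adjusted p = 0.0436, alternatives 0.0436 to 0.443), and FGF5 with RLE scaling or without random hairpin replicate 1 or shBAP1 replicate 2 (0.65, 0.95 and 0.77, adjusted p = 0.0459, 0.0337 and 0.0433, all alternatives 0.0337 to 0.335). FGF18 was at the edge of detection, with 5 counts over the random hairpin libraries and 1 over the shBAP1 libraries (ratio 4.91, exact 95% interval 0.549 to 232), a difference not detectable at this depth.

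In MSTO-211H, shBAP1 changed 7 of 8 tested members, 5 upward and 2 downward, where 46.2% of all tested genes were called. The median log2 change was 0.64 over the 8 members and -0.02 over all tested genes. FGFR3, a receptor known for activating mutations in skeletal disease and bladder cancer, had 0.957 and 0.916 CPM (20 and 19 counts) with the random hairpin and 7.31 and 7.05 CPM (152 and 160 counts) with shBAP1. It rose 7.62-fold (2.93 ± 0.19, adjusted p = 4.99e-07). FGF18, a ligand known to act through FGFR3 in cartilage, had 6.51 and 5.35 CPM with the random hairpin and 23.3 and 23.7 CPM with shBAP1. It rose 3.96-fold (1.99 ± 0.12, adjusted p = 2.44e-07). FGFR3 with shBAP1 lay above its level in either H2810 group, and per kilobase it ranked 6 of the 10 members in those cells and 7 with the random hairpin, at 1.48 ± 0.0381 and 0.193 ± 0.00597 CPM per kilobase (n = 2 each).

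FGFR1 went the other way from FGFR3. It had 37.8 and 40.4 CPM with the random hairpin and 30.0 and 29.7 CPM with shBAP1 (-0.39 ± 0.06, adjusted p = 0.000180). FGFRL1 rose from 73.6 and 71.3 CPM to 121 and 125 CPM (0.76 ± 0.05, adjusted p = 3.63e-07). FGFR4 had 3.25 and 2.99 CPM against 4.23 and 4.67 CPM (0.51 ± 0.15, adjusted p = 0.0143), and DESeq2 and the omission of random hairpin replicate 2 or shBAP1 replicate 2 lost this call (adjusted p 0.0860, 0.0889 and 0.0952, all alternatives 0.0105 to 0.0952).

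Among the MSTO-211H ligands, FGF5 fell from 107 and 103 CPM to 48.6 and 47.7 CPM (-1.12 ± 0.06, adjusted p = 1.14e-07). FGF2 rose from 504 and 525 CPM to 709 and 683 CPM (0.44 ± 0.05, adjusted p = 3.06e-05) and remained the highest member per kilobase at 102 ± 2.66 CPM per kilobase (n = 2). FGF1 had 6 and 6 counts with the random hairpin and 14 and 12 with shBAP1 and was not called (1.04 ± 0.44, adjusted p = 0.0754), except in a fit of only the MSTO-211H groups (adjusted p = 0.0475, the lowest of its alternatives).

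**Figure D2:**
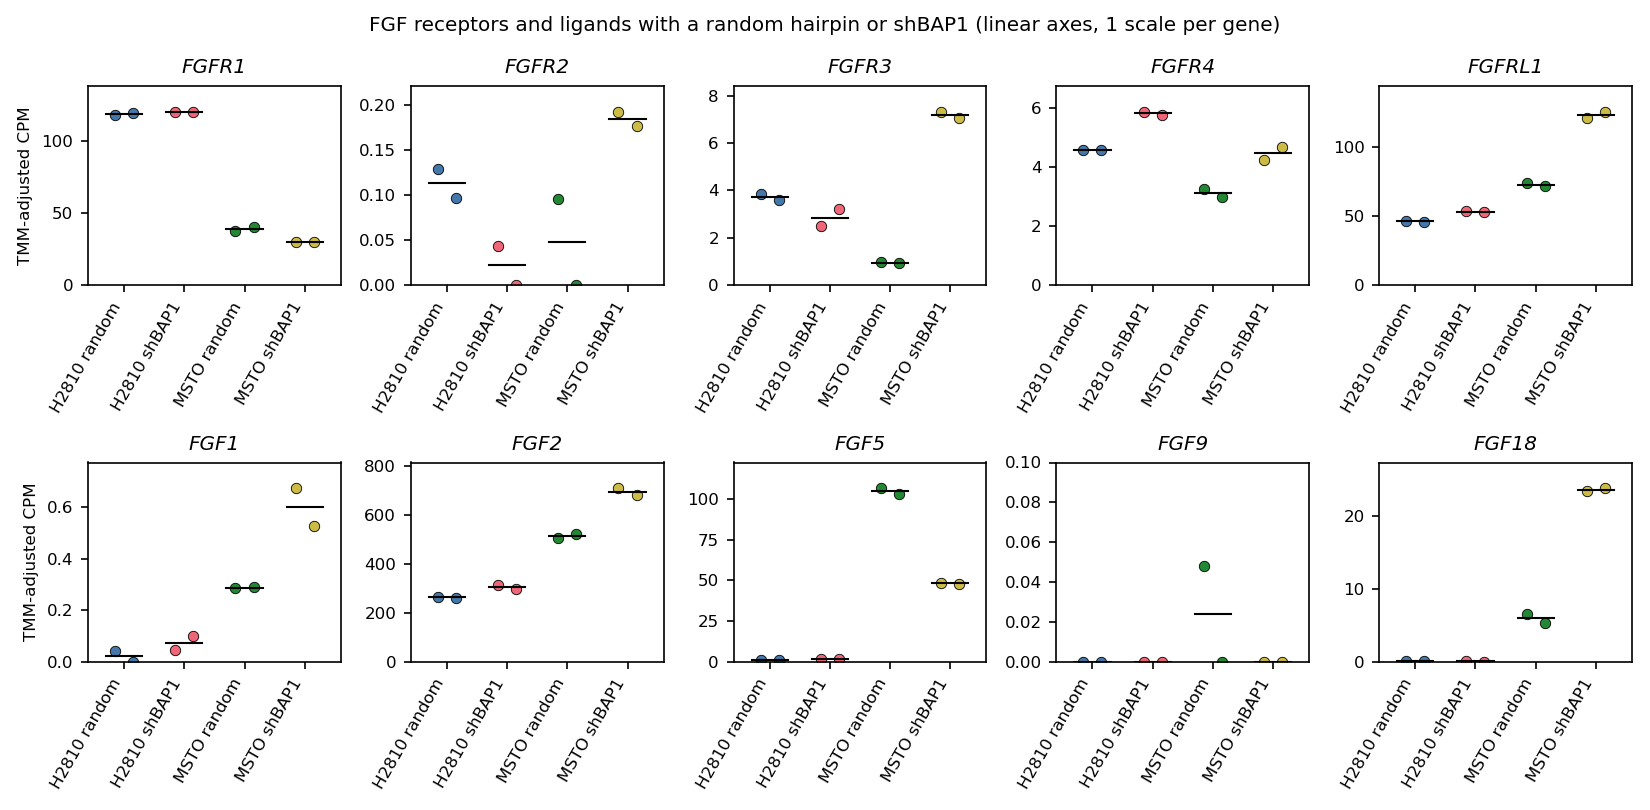
TMM-adjusted CPM (linear axes from 0, 1 scale per gene) of the 10 members in the 8 knockdown libraries. Points are libraries and bars are means of 2. In MSTO-211H the shBAP1 points lie above the random hairpin points for FGFR3, FGF18, FGFRL1 and FGF2 and below them for FGFR1 and FGF5, and FGFR2, FGF1 and FGF9 stay under 0.7 CPM throughout.

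The 3 members with the largest log2 changes in MSTO-211H were FGFR3, FGF18 and FGF5, and 250 bases before a start site of each are shown because 2 of these genes rose and 1 fell. The sequences are from RefSeq on GRCh38.p14, plus strand, at chr4:1793043-1793292 for FGFR3, chr5:171419397-171419646 for FGF18 and chr4:80266338-80266587 for FGF5. Each lies outside the gene itself, which the count tables place at chr4:1793293-1808872, chr5:171419647-171457626 and chr4:80266599-80336680. Capitals mark GGGCGG on either strand (CCGCCC on the printed one), the GC box read by Sp and KLF factors.
FGFR3: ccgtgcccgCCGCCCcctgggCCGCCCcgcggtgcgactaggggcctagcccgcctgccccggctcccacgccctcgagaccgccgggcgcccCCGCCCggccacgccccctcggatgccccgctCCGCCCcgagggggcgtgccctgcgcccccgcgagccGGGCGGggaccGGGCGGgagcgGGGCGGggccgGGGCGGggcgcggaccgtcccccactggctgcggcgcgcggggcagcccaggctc
FGF18: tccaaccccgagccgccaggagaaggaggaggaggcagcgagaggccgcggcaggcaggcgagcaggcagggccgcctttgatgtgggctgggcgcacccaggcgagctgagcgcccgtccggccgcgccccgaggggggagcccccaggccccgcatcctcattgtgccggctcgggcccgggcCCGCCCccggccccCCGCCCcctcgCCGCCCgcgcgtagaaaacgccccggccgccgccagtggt
FGF5: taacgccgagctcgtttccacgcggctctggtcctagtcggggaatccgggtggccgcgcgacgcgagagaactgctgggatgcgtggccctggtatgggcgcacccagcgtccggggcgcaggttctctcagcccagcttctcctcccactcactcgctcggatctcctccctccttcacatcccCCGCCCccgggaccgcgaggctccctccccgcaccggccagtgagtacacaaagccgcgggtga

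The 3 windows printed held more CpG than most, with 40 CpG in the FGFR3 window, 31 in the FGF18 window and 27 in the FGF5 window, against a median of 11 over all 35116 windows of this length in the table. GGGCGG occurred 8 times before FGFR3, 3 times before FGF18 and 1 time before FGF5, and 42.6% of all windows hold it at least 1 time. TATAAA, found in 10.7% of windows, TGANTCA, the AP-1 motif, found in 6.57%, and GGAATG, a TEAD motif, found in 11.9%, were in none of the 3. RefSeq has another FGF5 start site whose window (chr4:80268018-80268267, plus strand, inside the gene as the count tables place it) held 3 CpG, 0 GGGCGG and 2 TATAAA, and gene counts do not tell the start sites apart. The windows describe the sequence and hold no measurement of binding. Of the 10 members, 8 had an entry in the promoter table, and FGFR1 and FGF9 had none.

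Both lines were set against each other in the difference of their shBAP1 responses, MSTO-211H minus H2810, which was called for 6 of 8 tested members, 4 higher and 2 lower, where 27.7% of all tested genes were called. FGFR3 differed by 3.33 ± 0.26 (adjusted p = 6.94e-06) and FGFRL1 by 0.56 ± 0.07 (adjusted p = 0.000169), with log2 changes of 2.93 and 0.76 in MSTO-211H against -0.39 (not called) and 0.20 in H2810. FGF5 differed by -1.74 ± 0.24 (adjusted p = 0.000268) and FGFR1 by -0.41 ± 0.07 (adjusted p = 0.00191). The FGF18 difference of 4.03 ± 1.11 (adjusted p = 0.0195) rests on 6 counts in H2810. It ran from 3.25 to 6.34 with single libraries left out, the highest without H2810 shBAP1 replicate 1 and the lowest without H2810 shBAP1 replicate 2. Without H2810 random hairpin replicate 2 or H2810 shBAP1 replicate 2 its adjusted p was 0.112 or 0.0539 (alternatives 0.00497 to 0.112). FGF2 differed by 0.23 ± 0.07 (adjusted p = 0.0329), a call lost by 9 of 14 alternatives (adjusted p from 0.0173 to 0.246). FGFR4 (0.16 ± 0.20, adjusted p = 0.603) and FGF1 (-0.36 ± 0.97, adjusted p = 0.854) showed no called difference, which does not show equal responses. The 2 responses share no library, but each shares its random hairpin libraries with the comparison of the lines given above.

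Genes near the members on the chromosome were read for the same knockdown. Within 100000 bases of FGFR3, 5 other genes were tested in MSTO-211H, and their log2 changes ran from -0.56 to 0.38. Of these, 2 were called higher and 2 lower, where 46.2% of all tested genes were called. TACC3, a centrosome gene known from fusions with FGFR3, changed by 0.15 ± 0.06 (adjusted p = 0.0449), and NSD2, a histone methyltransferase gene, by -0.13 ± 0.06 (adjusted p = 0.113). NPM1, the tested neighbour of FGF18, changed by -0.03 ± 0.05 (adjusted p = 0.708), and PRDM8, the tested neighbour of FGF5, by -0.87 ± 0.63 (adjusted p = 0.289). None of these estimates was as large as that of the member beside it, though the one for PRDM8 is imprecise. The neighbour estimate largest in size was 0.47 ± 0.14 near FGFRL1 (TMEM175), against 0.76 for FGFRL1. Near FGFR4 it was 0.50 ± 0.07 (ZNF346), against 0.51 for FGFR4. Near FGFR1 and FGF2 it was different. LETM2, near FGFR1, changed by -1.58 ± 0.12 (adjusted p = 1.05e-06), against -0.39 for FGFR1. Near FGF2, which changed by 0.44, SPATA5 changed by 0.85 ± 0.08 and BBS12 by -0.80 ± 0.15 (adjusted p = 4.86e-06 and 0.00107).

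Some members share bases with other genes, and whether the counting used strand is not known here. FGF2 (chr4:122826682-122898236, GRCh38, plus strand) shares 804 exon bases, 11.8% of its exons, with NUDT6 on the other strand, and NUDT6 held 2535 counts against 76399 for FGF2 in the knockdown table and 889 against 25372 in the drug table. NUDT6 changed by -0.19 ± 0.08 with shBAP1 in MSTO-211H (adjusted p = 0.0777), where FGF2 rose. FGF5 shares 136 exon bases with CFAP299, which held 18 counts in the knockdown table. FGFR1 shares 138 exon bases, 0.80% of its exons, with LETM2 on the other strand. LETM2 held 1383 counts against 13319 for FGFR1 in the knockdown table and 896 against 25159 in the drug table. Both LETM2 and FGFR1 were called lower with shBAP1 in MSTO-211H, as given above. Whether shared reads had a part in the FGFR1 change was not tested.

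The genes whose pattern over the 8 knockdown libraries came closest to a member were found by the root mean square difference of centred log2 CPM. For FGFR3 these were SAMD11 (0.17 log2 units, the nearest), KCNK2, LINC02593, SSPOP and ZNF467. For FGF18 they were NEURL1 (0.50), SMPD3, PRAME, PCDH10 and HR, for FGFR1 HOXD4 (0.07), GYPC, STAG1, BLVRB and PNMA1, and for FGF2 GOPC (0.04), NAA25, UNC119B, CIAPIN1 and CAPN2. The points are 4 libraries of each of 2 lines, and share line, hairpin and depth, so likeness here is a description only.

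Other parts of the FGF pathway were read from lists, in the same MSTO-211H comparison. There, 3440 of all 15872 tested genes were higher and 3887 lower (median -0.02). Of 11 feedback inhibitors, which dampen ERK signalling, 4 were higher and 2 lower (median log2 change 0.32), with DUSP6, an ERK phosphatase, up by 1.501 ± 0.13, DUSP4 up by 1.02 ± 0.18 and DUSP5 at -1.12 ± 0.08 (adjusted p = 4.05e-06, 0.000858 and 6.44e-07). Of 7 transcription factors downstream of ERK, 3 were higher and 2 lower. ETV5 was up by 0.98 ± 0.06, MYC stood at -0.21 ± 0.05 and ETV1 at 0.44 ± 0.10 (adjusted p = 3.79e-07, 0.00382 and 0.00452). Of 12 tested co-receptors and FGF-binding proteins, 3 were higher and 6 lower (median -0.22), among them SDC4, a heparan sulfate proteoglycan, at -1.96 ± 0.07 (adjusted p = 1.17e-08). FGF19, an endocrine FGF, rose by 1.85 ± 0.26 (adjusted p = 0.000152). It was the called one of 3 tested FGF ligands and FGF homologous factors outside the members. Of 8 tested genes of heparan sulfate synthesis and editing 3 were higher and 4 lower, and of 11 adaptors 2 were higher and 4 lower.

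In H2810 with shBAP1, 3576 of all 15872 tested genes were higher and 3701 lower (median -0.03). The feedback inhibitors gave 2 higher and 4 lower of 11 (median -0.35). Among them DUSP6 was up by 0.85 ± 0.09 (adjusted p = 1.65e-05). SPRY1, a Sprouty inhibitor of receptor signalling, stood at -1.33 ± 0.10 (adjusted p = 2.37e-06). The difference between the lines was called for 7 of these 11 feedback inhibitors, 6 of them higher and 1 lower in MSTO-211H. Over all 15872 tested genes this difference was called higher for 1783 and lower for 2614. SPRY1 differed by 1.30 ± 0.15 (adjusted p = 9.46e-05). SDC1, a heparan sulfate proteoglycan, rose by 2.10 ± 0.10 in H2810 (adjusted p = 7.29e-08), and the co-receptor list gave 3 higher and 6 lower of 12. The ERK-linked transcription factors gave 3 higher and 3 lower of 7. EGR1 stood at -1.09 ± 0.07, FOSL1 at 0.41 ± 0.05 and FOS at -0.61 ± 0.13 (adjusted p = 9.21e-07, 5.25e-05 and 0.00226). Heparan sulfate genes gave 2 higher and 3 lower of 8 and adaptors 3 and 4 of 11. The list of other FGF ligands and FGF homologous factors gave 0 and 2 of 3, FGF12 and FGF13.

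EZH2 inhibition was asked of H2810 and H2731. In H2810, GSK126 changed 3 of 8 tested members, 2 upward and 1 downward, where 29.3% of all tested genes were called. The median log2 change was -0.03 over the members and 0 over all tested genes. FGFR1 rose from 124 and 127 CPM to 149.6 and 150.5 CPM (0.26 ± 0.04, adjusted p = 4.80e-05). FGF2 fell from 262 and 261 CPM to 177 and 180.2 CPM (-0.55 ± 0.04, adjusted p = 1.89e-09). In both genes the groups were far apart beside the spread of their 2 libraries. FGFR4 had 11.3 and 11.4 CPM with DMSO and 13.0 and 14.3 CPM with GSK126 (0.27 ± 0.09, adjusted p = 0.0314), a call lost by 5 of 11 alternatives, namely DESeq2, no filter on low counts and the omission of DMSO replicate 1, DMSO replicate 2 or GSK126 replicate 2 (adjusted p of all alternatives 0.0293 to 0.244).

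The other H2810 members were not called with GSK126. FGFRL1 had 50.1 and 54.1 CPM with DMSO and 52.9 and 50.03 CPM with GSK126 (-0.02 ± 0.06, adjusted p = 0.851), and these groups overlapped. FGFR3 had 4.85 and 4.68 CPM against 4.67 and 4.26 CPM (-0.09 ± 0.14, adjusted p = 0.703). FGF18 held 18 counts with DMSO and 11 with GSK126 (-0.73 ± 0.48, adjusted p = 0.324), FGF5 20 and 33 (0.68 ± 0.40, adjusted p = 0.225), and FGFR2 3 and 3. The groups of FGFR3, FGF18 and FGF5 did not overlap although none of these was called, and those of FGFR2 overlapped. FGF9 held 0 counts in all 4 H2810 libraries of this table.

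In H2731, GSK126 changed 4 of 8 tested members, 2 upward and 2 downward, where 24.7% of all tested genes were called. The median log2 change was -0.06 over the members and 0 over all tested genes. FGF2 rose from 82.9 and 87.9 CPM to 113 and 119 CPM (0.44 ± 0.04, adjusted p = 2.77e-07), opposite to H2810. FGFR3 fell from 34.0 and 33.1 CPM to 25.8 and 24.1 CPM (-0.43 ± 0.06, adjusted p = 4.54e-05). FGF18 fell from 22.8 and 21.1 CPM to 16.1 and 16.6 CPM (-0.43 ± 0.08, adjusted p = 0.000291). For these 3 genes and FGFR4 the GSK126 and DMSO libraries did not overlap. That was also so for FGF5, which was not called, so separation of 2 libraries from 2 does not mark a change. How often it occurred over all tested genes was not counted. FGFR4 had 17.7 and 16.6 CPM against 20.9 and 20.2 CPM (0.26 ± 0.07, adjusted p = 0.0138), and DESeq2 and the omission of DMSO replicate 2 or GSK126 replicate 1 lost this call (adjusted p 0.154, 0.0939 and 0.0840, all alternatives 0.0113 to 0.154).

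FGFR1, FGFRL1, FGFR2 and FGF5 were not called in H2731. FGFR1 had 178 and 172 CPM against 172 and 166 CPM (-0.05 ± 0.04, adjusted p = 0.383). FGFRL1 had 174 and 162 CPM against 166 and 156 CPM (-0.06 ± 0.05, adjusted p = 0.371), and both pairs of groups overlapped. FGFR2 had 1.87 and 2.58 CPM against 1.90 and 2.26 CPM (-0.08 ± 0.23, adjusted p = 0.846). FGF5 held 11 counts against 22 (1.02 ± 0.50, adjusted p = 0.156), and FGF9 13 against 9.

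**Figure D3:**
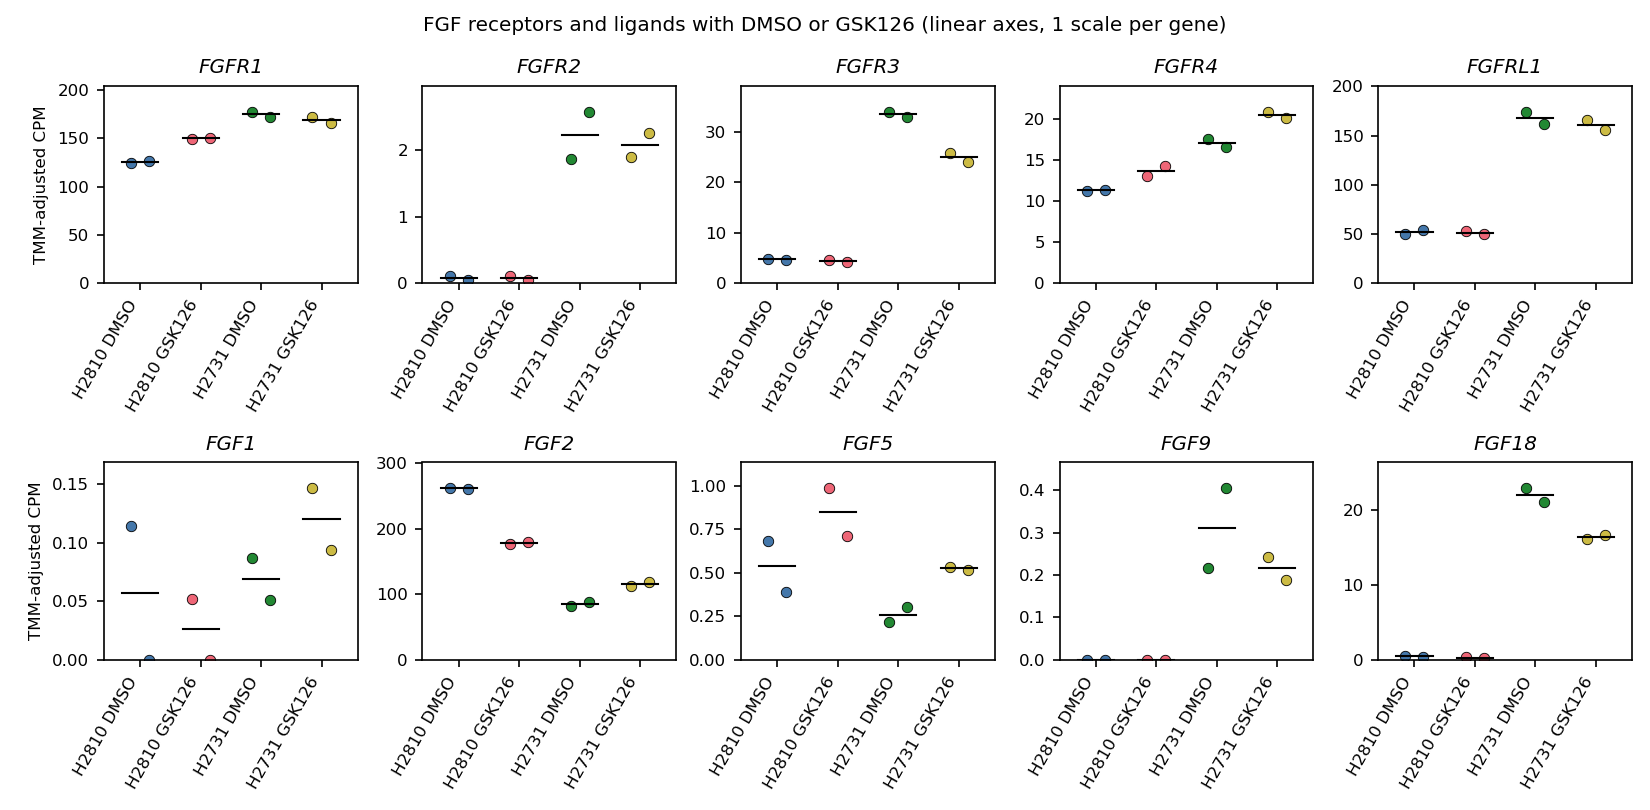
TMM-adjusted CPM (linear axes from 0, 1 scale per gene) of the 10 members in the 8 drug libraries. Points are libraries and bars are means of 2. FGF2 is lower with GSK126 in H2810 and higher with it in H2731, FGFR1 is higher with it in H2810, and FGFR3 and FGF18 are lower with it in H2731.

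The difference of the GSK126 responses, H2731 minus H2810, was called for 2 of 8 tested members, 1 higher and 1 lower, where 14.7% of all tested genes were called. FGF2 differed by 0.99 ± 0.06 (adjusted p = 4.68e-10), with the GSK126 libraries all below the DMSO libraries in H2810 and all above them in H2731. FGFR1 differed by -0.31 ± 0.05 (adjusted p = 0.000505). FGFR3 was called in H2731 and not in H2810, and the difference itself was not called (-0.33 ± 0.15, adjusted p = 0.171). The same holds for FGF18 (0.31 ± 0.47, adjusted p = 0.786), and the FGFR4 responses differed by -0.01 ± 0.12 (adjusted p = 0.9999). These responses share their DMSO libraries with the comparison of H2731 and H2810. The drug and knockdown tables share H2810 but no library. In H2810, FGF2 changed by 0.21 with shBAP1 and by -0.55 with GSK126, and FGFR1 by 0.02 and 0.26, with no test between tables.

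Near FGFR3, 3 of 5 tested neighbours were called lower with GSK126 in H2731, where 1749 of all 15999 tested genes were called lower. LETM1 changed by -0.25 ± 0.05 (adjusted p = 0.000343), TACC3 by -0.18 ± 0.04 (adjusted p = 0.00414) and NSD2 by -0.10 ± 0.04 (adjusted p = 0.0400). In H2810 none of the 5 was called by edgeR, with log2 changes from -0.08 to 0.06. Near the other members in H2731, 1 of 5 neighbours of FGFRL1 was called lower and the 1 neighbour of FGF1 higher. None was called near FGFR1, FGFR4, FGF2, FGF5, FGF9 or FGF18. Over the 8 drug libraries the genes closest in pattern to FGFR1 were MBIP (0.02 log2 units), PCNA, ALDH3B1, ARHGDIA and CNNM2, and those closest to FGF2 were ARHGAP26 (0.08), THBS1, SLC22A5, HEATR5A and ITPK1.

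**Figure D4:**
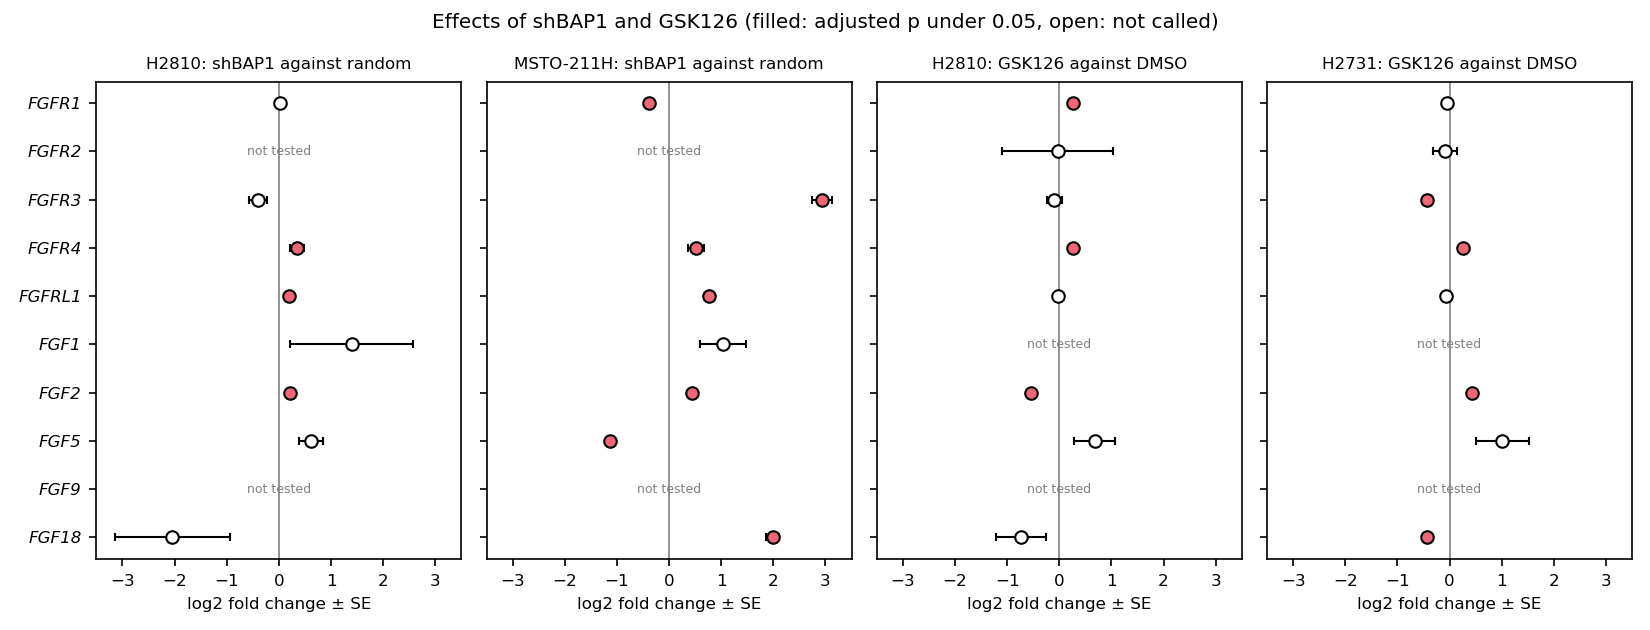
Log2 fold changes (points) with their standard errors (bars) of the tested members for shBAP1 in H2810 and MSTO-211H and for GSK126 in H2810 and H2731. Filled points were called at an adjusted p under 0.05. FGFR3 and FGF18 lie far to the right with shBAP1 in MSTO-211H, at 2.93 and 1.99, and slightly to the left with GSK126 in H2731, at -0.43 each.

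The wider pathway under GSK126 was read from the same lists. Over all 15999 tested genes, 2210 were higher and 1749 lower in H2731, and 2610 were higher and 2071 lower in H2810. In H2731, 8 of 15 tested co-receptors and FGF-binding proteins were higher and 0 lower (median 0.21), with FGFBP1, a secreted carrier that releases FGFs from the matrix, up by 2.41 ± 0.26 (adjusted p = 2.43e-06) and FLRT3 up by 1.46 ± 0.19 (adjusted p = 1.46e-05). SULF1, which trims sulfate from heparan sulfate, rose by 1.23 ± 0.08 (adjusted p = 4.84e-10), among 5 higher and 1 lower of 9 heparan sulfate genes. Feedback inhibitors gave 4 higher and 0 lower of 11, ERK-linked factors 4 and 0 of 7 and adaptors 1 and 1 of 11. IL17RD, a feedback inhibitor also called Sef, rose by 0.60 ± 0.13 (adjusted p = 0.00190).

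In H2810 the same lists gave 6 higher and 3 lower of 15 co-receptors, 2 and 2 of 9 heparan sulfate genes, 4 and 1 of 11 feedback inhibitors, 3 and 1 of 7 transcription factors and 2 and 2 of 11 adaptors. SDC1 rose by 1.16 ± 0.08 (adjusted p = 1.71e-09) and SDC2 by 1.05 ± 0.13 (adjusted p = 4.10e-06), while SULF1 fell by 0.45 ± 0.03 on the log2 scale (adjusted p = 5.82e-09). SULF1 differed between the lines by 1.68 ± 0.08 (adjusted p = 3.85e-11). DUSP5 rose by 0.56 ± 0.06 (adjusted p = 5.56e-07) and ETV1 by 0.80 ± 0.08 (adjusted p = 3.12e-07).

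Between the lines themselves, 11 feedback inhibitors gave 2 higher and 9 lower in MSTO-211H than in H2810 (median -1.502), where 6189 of all 15872 tested genes were higher and 6466 lower (median -0.03), and SPRY4 differed by -4.10 ± 0.08 (adjusted p = 3.00e-12). H2731 against H2810 gave 4 higher and 6 lower of 11 (median -0.30), where 6644 of all 15999 tested genes were higher and 6509 lower, with SPRY4 at -4.35 ± 0.10 and DUSP4 at 3.37 ± 0.10 (adjusted p = 4.71e-19 and 2.26e-17). SDC1 was higher than in H2810 in both lines, by 3.42 ± 0.09 in MSTO-211H and 4.12 ± 0.06 in H2731 (adjusted p = 1.89e-11 and 5.17e-22). SULF1 was lower in both, by -6.00 ± 0.09 and -6.90 ± 0.05 (adjusted p = 3.27e-13 and 5.26e-26).

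In the mouse cells, loss of Bap1 on top of Nf2 and Cdkn2ab was compared by BNC against NC. No member was called, 0 of 6 tested, where 0% of all tested genes (0 of 12225) were called by edgeR. At an unadjusted p under 0.05 edgeR gave 823 genes and 1 member, DESeq2 called 302 genes and 0 members, and limma-voom called 0 genes. The spread between libraries was wide, with a square root of the common dispersion of 0.539, against 0.0533 in the knockdown and 0.0311 in the drug table.

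Fgfr1 was the member that passed the unadjusted threshold. It had 34.9, 38.2 and 133 CPM in BNC replicates 4, 5 and 6 and 9.92 and 20.3 CPM in NC replicates 4 and 5 (2.18 ± 0.79, adjusted p = 0.694). Fgfr2, on an annotated span that covers many other genes and shares 314 exon bases with Ctbp2, had 17.1, 17.1 and 110.5 CPM against 7.38 and 13.9 CPM (2.17 ± 1.06, adjusted p = 0.798). For both the groups did not overlap, and BNC replicate 6 was far above the other BNC libraries. Without it the log2 differences were 1.26 for Fgfr1 and 0.67 for Fgfr2 (adjusted p = 0.182 and 0.363), and under no alternative was the adjusted p below 0.111 for Fgfr1 or 0.329 for Fgfr2. In BNC the mesothelial markers summed to 133 to 982 CPM against 997 to 2666 CPM in NC, with Calb2 at 0 in all 5 libraries, and the fibroblast markers to 1696 to 12350 CPM against 5157 to 7557 CPM. Their part in the receptor levels was not tested.

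For the other tested mouse members the groups overlapped. Fgfr3 had 4.59, 5.09 and 11.9 CPM against 27.3 and 7.22 CPM (-1.26 ± 0.73, adjusted p = 0.838). Fgfrl1 had 12.6, 11.5 and 9.70 CPM against 22.5 and 9.29 CPM (-0.50 ± 0.44, adjusted p = 0.898). Fgf18 had 1.40, 1.84 and 0.615 CPM against 1.23 and 5.45 CPM (-1.38 ± 0.84, adjusted p = 0.847), and Fgf2 had 0.499, 0.548 and 0.615 CPM against 0.0724 and 4.09 CPM (-1.91 ± 1.34, adjusted p = 0.864). For Fgf2 the NC libraries, with 1 and 81 counts, enclose all BNC values. Mouse Fgf2 shares 640 exon bases, 9.44% of its exons, with Nudt6 on the other strand, and Nudt6 held 230 counts over the 5 libraries against 117 for Fgf2, so without a known strand setting the source of these reads is uncertain. Mouse Fgf2 lay far below Fgfr1 per kilobase in BNC (0.0817 ± 0.00860 and 6.96 ± 5.65 CPM per kilobase, n = 3).

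Fgf5 did not pass the filter on low counts and was not tested. BNC replicate 6 held 298 counts (13.1 CPM), BNC replicates 4 and 5 held 0, and NC replicates 4 and 5 held 0 and 3. Fgfr4 held 4 counts over the 5 libraries, Fgf1 held 6 and Fgf9 held 2. A library at 0 allows up to 0.132 to 0.217 CPM in the mouse table. In the pathway lists 0 genes were called by edgeR. List medians ran from -1.64 for the 2 tested member ligands to 3.08 for the 2 tested FGF ligands and FGF homologous factors outside the members. They were -0.30 for 11 feedback inhibitors and 0.99 for 7 ERK-linked transcription factors, against 0.03 over all tested genes.

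**Figure D5:**
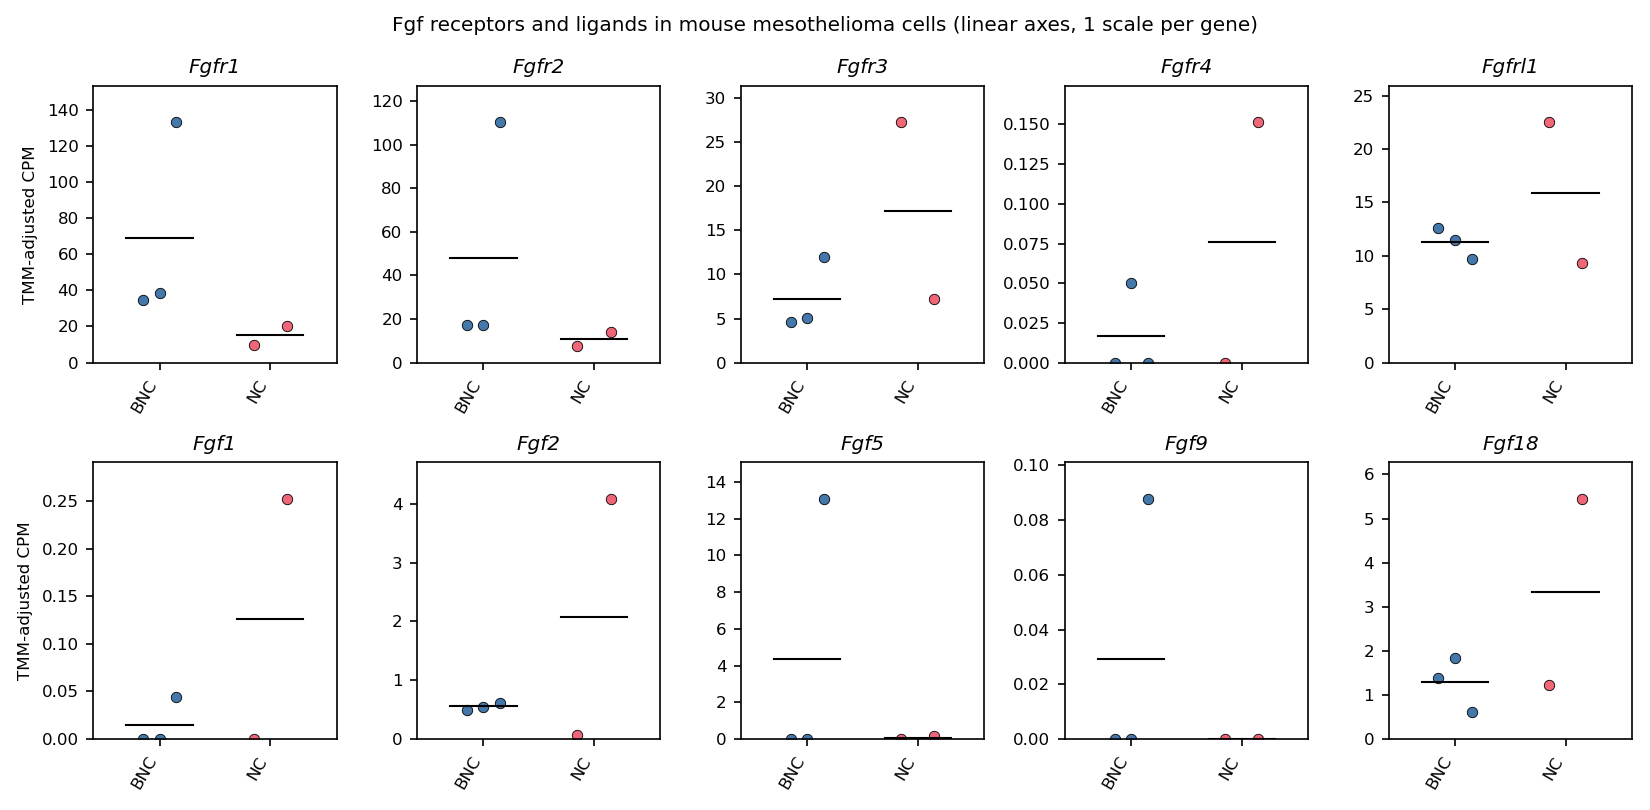
TMM-adjusted CPM (linear axes from 0, 1 scale per gene) of the 10 orthologs in 3 BNC and 2 NC libraries. Points are libraries in replicate order and bars are group means. BNC replicate 6 is the highest point for Fgfr1, Fgfr2 and Fgf5, and the groups overlap for Fgfr3, Fgfrl1, Fgf2 and Fgf18.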

How the data were processed

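The authors deposited whole-number read counts for Ensembl genes, in 1 table each for the knockdown, drug and mouse libraries. The submitters' processing notes name TopHat, TopHat2 (2.0.12), HTSeq and DESeq2 without their roles, and mm10 and GRCm38 as mouse builds. No human build is named there, and 99.94% of 60674 human genes overlapped their GENCODE 44 (GRCh38) entry, from which lengths and coordinates were taken. Per the labels' protocols, libraries were poly-A TruSeq mRNA read single-end.

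Each table was fitted alone, all groups together, in edgeR 4.0.16 under R 4.3.3 (filterByExpr, TMM, quasi-likelihood F tests, Benjamini-Hochberg over all genes tested: 15872, 15999 and 12225). The SE is the log2 fold change divided by the square root of F. The method was also run on simulated counts, in which only genes averaging over 50 counts were changed. The simulated folds were larger than many reported here and, in the mouse, larger than the members' estimates. The simulation therefore does not cover genes with few counts or small changes. Alternatives were RLE scaling, a filter of 50 counts in 2 libraries or none, limma-voom (limma 3.58.1), DESeq2 1.42.0, a fit without the other groups, a block for the replicate number, omission of each library and, for levels per kilobase, the longest transcript. All members were named, with up to 3 called genes of smallest p per pathway list and 5 genes of most similar pattern for selected members. The members and lists were chosen with earlier results of these data known.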

Additional observations from a re-analysis of the deposited data

Results flagged for a closer look

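For 6 members the response to shBAP1 differed between MSTO-211H and H2810 by the test of the difference itself (edgeR's quasi-likelihood test, adjusted over all genes). The log2 differences, MSTO-211H minus H2810, were 3.33 for FGFR3, 4.03 for FGF18, 0.56 for FGFRL1, 0.23 for FGF2, -1.74 for FGF5 and -0.41 for FGFR1. In MSTO-211H alone, FGFR3 rose by 2.93, while in H2810 it stood at -0.39 and was not called. FGF5 changed by -1.12 in MSTO-211H and stood at 0.62 in H2810, where it was not called. The FGF2 and FGF18 differences lost their call under some alternatives. The FGF18 difference rests on 6 counts in H2810 and ran from 3.25 to 6.34 with single libraries left out.

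For 2 members the response to GSK126 differed between H2731 and H2810. FGF2 differed by 0.99, rising by 0.44 in H2731 and falling by 0.55 in H2810, and both changes were called. FGFR1 differed by -0.31, with 0.26 in H2810 and -0.05 in H2731.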

How the results depend on the processing

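Of 40 called changes or differences of members, 33 kept their direction and their call under each alternative that gave a value, 7 lost the call under at least 1, and 0 changed sign. The 7 are the 5 FGFR4 calls apart from that between H2731 and H2810, and the FGF2 and FGF18 differences between the shBAP1 responses, given with their alternatives above. The number of members called stayed within 1.5 times of its value in each comparison. The median gene moved by -0.04 to 0.05 on the log2 scale. In a fit without the other groups, 6280 of 14545 tested genes were called with shBAP1 in H2810 and 8546 of 14410 in MSTO-211H.

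Of 30 effects not called, 12 changed sign under some alternative. FGFR1 with shBAP1 in H2810 was -0.0049 with at least 50 counts in 2 libraries. With single libraries left out the log2 values ran from -2.65 to 0.38 for the FGF1 difference between the shBAP1 responses, from -0.58 to 0.60 for FGFR2 and from -0.072 to 0.041 for FGFRL1 with GSK126 in H2810, and from -0.31 to 0.15 for FGFR2 with GSK126 in H2731. For the differences between the GSK126 responses they ran from -0.68 to 0.50 for FGFR2, -0.074 to 0.054 for FGFR4, -0.10 to 0.014 for FGFRL1 and -0.091 to 0.71 for FGF5. In the mouse they ran from -2.87 to 2.83 for Fgf2, -2.08 to 0.058 for Fgf18 and -1.002 to 0.28 for Fgfrl1, where leaving out NC replicate 5 (Fgf2, Fgf18) or NC replicate 4 (Fgfrl1) turned the sign. The cause was not tested.

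Same-numbered libraries correlated in their deviations by -0.06 to 0.10 in the human and -0.31 to 0.34 in the mouse tables, and were treated as unpaired. The replicate block changed 1 call, FGFR4 with shBAP1 in H2810 (adjusted p = 0.0690). Where a left-out library leaves 1 in a group, that library is assumed to vary like the others. Members with few counts (FGF1, FGF9, FGFR2 outside H2731) are limited by depth.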
